A study of Mus musculus with 15 samples.

Results

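Ovulated cumulus cells of adult mice were compared with cumulus cells of juvenile mice, which are the ends of the range of oocyte developmental competence sampled in the mouse. The comparison used 10 of the 15 arrays of the series, chosen by their labelled stage alone, as 5 arrays of stage NC1 and 5 of stage C2. The 5 arrays of the intermediate stage C1 entered the same model and are given beside the others where a single step is described. All mice were B6CBAF1/J, a hybrid of laboratory strains. NC1 cells came from unexpanded cumulus-oocyte complexes punctured out of the ovaries of untreated mice aged 3 weeks, whose prophase I oocytes are labelled developmentally incompetent and were incompetent or poorly competent by the methods of the study. C1 cells were collected in the same way from mice aged 8 weeks, whose prophase I oocytes were competent. C2 cells came from expanded complexes flushed from the oviduct of mice aged 8 weeks after hormonal priming and an ovulatory injection, and they surrounded metaphase II oocytes. The oocyte was removed mechanically with a pipette at the 2 unexpanded stages, and 300 µg/ml hyaluronidase was used to disperse the expanded complexes. Each array held RNA of a pool of cells from several mice, and the pools came from separate groups of mice. Age, hormone treatment, site of collection and enzyme all differ between NC1 and C2, and they cannot be told apart here.

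Cumulus cells are specialised granulosa cells that feed the growing oocyte through gap junctions and hold it in meiotic arrest. After the ovulatory surge of luteinizing hormone they stop dividing, lay down a hyaluronan matrix that expands the complex, and begin to turn into cells that make progesterone. Cells under stress switch on several distinct programmes, among which are the unfolded protein response of the endoplasmic reticulum, the integrated stress response to amino acid shortage, the NRF2 response to oxidants, the p53 response to DNA damage and the response to low oxygen.

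The comparison was fitted on 17342 probes that were present at all 3 stages, and values are log2 signals with the median of each array at 0. A probe was called when the Benjamini-Hochberg adjusted p of limma was under 0.01. Between C2 and NC1, 51.5% of the probes tested were called (8929 probes, 4606 higher and 4323 lower at C2). With 1 probe kept for each of 12660 genes, 27.2% of the genes (3438) rose and 26.0% (3291) fell over the span, and the median difference over all genes was -0.02. A called gene differed by 0.98 at the median. Of the called genes, 1646 were at least 2-fold higher and 1616 at least 2-fold lower, while 78 were at least 16-fold higher and 75 at least 16-fold lower. On the scale on which the table was deposited, without centring on the tested probes, the median of all tested probes moved to 0.19 and 65.3% of the calls were higher at C2, against 51.6% on the scale used here. The slide barcodes in the file headers grouped the arrays into 4 slides, each of which held arrays of all 3 stages. Of the 8929 called probes, 8841 had the same direction within each of the 4 slides. The calls were made on these same arrays, so this count is not a separate check. The 2 single steps share arrays with the comparison of C2 and NC1 and are not independent of it. From NC1 to C1, 2.09% of the genes were called higher (264) and 0.853% lower. From C1 to C2, 26.1% were called higher (3301) and 23.4% lower (2968).

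The labelled cell type and the cells that could accompany it were checked by summing the signals of marker genes, with the median of each array at 1. The 10 cumulus and granulosa markers were all in the deposited table, and their sum ran from 208 to 271 at NC1 and had a median of 50.4 and a maximum of 62.2 at C2. At C2, 8 of these 10 genes were well above background in every array, and Kitl, the ligand through which granulosa cells act on the oocyte, in none. Theca and stroma markers (10 of 11 in the table) summed to between 13.7 and 62.0 at NC1 and to between 0.556 and 0.801 at C2, where Tcf21, Myh11, Pdgfra and Lum were above background in no array. Red blood cell markers (5 of 9 in the table, all globins or haem synthesis) summed to between 73.7 and 439 at NC1 and to between 9.95 and 25.4 at C2. The sum of oviduct epithelium markers (8 of 10) went the other way, from a range of 6.65 to 8.65 at NC1 to a range of 25.1 to 30.6 at C2. The list did not move as a whole, since the median difference over its 7 tested genes was 0.13. Of these 7, 3 were called higher (42.9%, beside 27.2% of all genes), 1 lower (14.3%, beside 26.0%) and 3 neither. All 8 genes were well above background in every NC1 array, and 6 in every C2 array. In that list the oviduct glycoprotein gene Ovgp1 and the keratin genes Krt8 and Krt18 were called higher, Krt19 was called lower, and the ciliated and secretory cell genes Foxj1 and Pax8 were not analysed here. The NC1 and C2 arrays overlapped in Ovgp1 and in Krt19. Leukocyte markers (7 of 10) ranged from 3.25 to 6.22 at NC1 and from 4.07 to 6.84 at C2, and endothelium markers (6 of 8) from 0.937 to 1.49 and from 1.02 to 1.74. Of the 10 leukocyte markers, 5 were tested. By gene, 3 of these 5 were called higher and none lower, while 27.2% of all genes were called higher and 26.0% lower. The median over the 5 was 1.23, and the myeloid genes Csf1r, Tyrobp and Fcer1g rose by 1.23, 1.76 and 1.26. The summed leukocyte signal did not rise with them, with a median of 5.18 at NC1 and 4.55 at C2. Oocyte markers (13 of 13) summed to between 13.2 and 52.0 at NC1 and to 17.6, 14.0 and 15.2 in C2 replicates 1 to 3, but only to 0.831 and 0.946 in C2 replicates 4 and 5. NC1 replicates 1 and 2 held the highest sums of red blood cell, oocyte and theca markers at NC1. Without C2 replicates 4 and 5, 7880 probes were called over the span, and without NC1 replicates 1 and 2, 8066. In bulk RNA, fewer cells of a type and less RNA per cell cannot be told apart. The part of these cells in the results below was not tested.

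**Figure D1:**
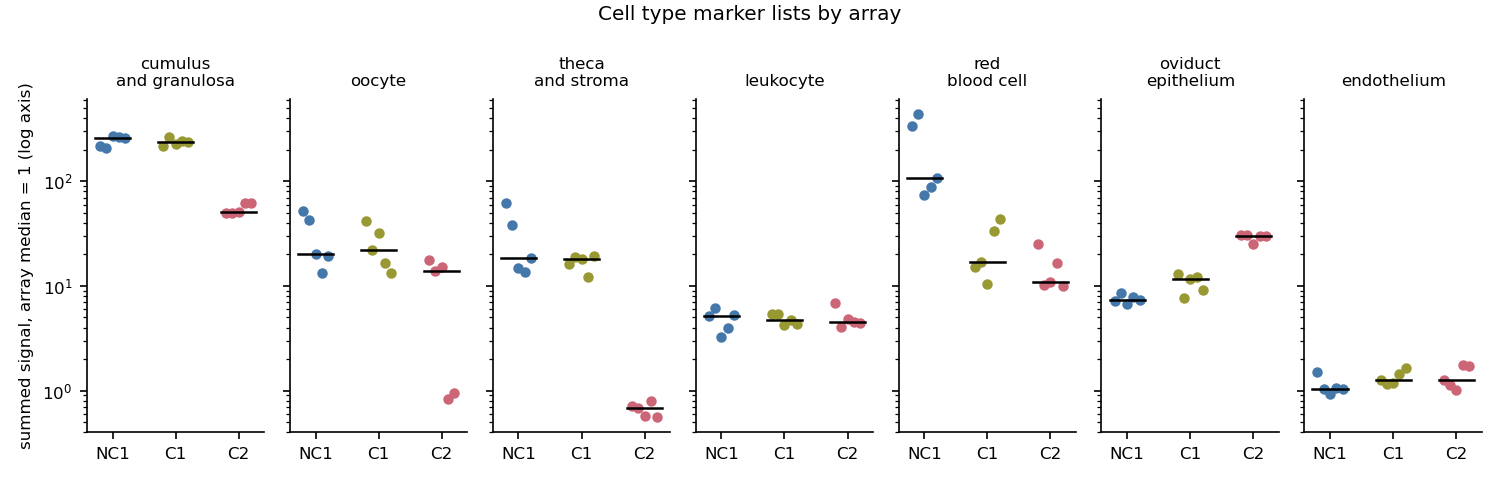
Summed signal of 7 cell type marker lists in each array, with the median of each array at 1, on a log axis. Points are arrays of NC1, C1 and C2 (5 each) and bars are medians. Theca and stroma markers lie between 0.556 and 0.801 in the C2 arrays, and oocyte markers split the C2 arrays into 3 near the NC1 range and 2 under 1.

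The genes Dmbt1, Sfrp2 and Itih5 mark the ends of the range. None of them was present at all 3 stages, so none was in the fit, and each is described by detection. Dmbt1, which encodes a secreted scavenger receptor-like glycoprotein of epithelia, was above background in no NC1 array, in 5 of 5 C1 arrays and in 5 of 5 C2 arrays. Its signal was 3.31, 3.75, 3.69, 3.26 and 3.16 in the C2 arrays, and its C1 mean was -1.97 ± 0.82 (SD, n = 5). At C2 it was at least 274-fold higher than at NC1, where the bound sets the C2 mean against a mean over the NC1 arrays. In that mean each array gave either its lowest signal well above background or the signal of the probe itself, whichever was higher. Sfrp2 encodes a secreted antagonist of WNT ligands. It was above background in no NC1 array and in 1 of 5 C1 arrays, and in C2 arrays it read 3.41, 3.08, 2.88, 2.90 and 3.23, at least 226-fold above NC1. The exception at C1 was replicate 4, at -1.90, while the other C1 arrays lay between -5.67 and -4.30. Itih5, a chain of the inter-alpha-trypsin inhibitor family whose members bind hyaluronan, ran the opposite way. It read 2.93, 2.30, 3.07, 2.62 and 2.90 at NC1 and had a C1 mean of 1.93 ± 0.59 (SD, n = 5), and it was above background in no C2 array, which put it at least 188-fold lower at C2.

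Relatives of these genes did not share 1 direction. Of the 13 secreted frizzled-related proteins and other WNT inhibitors, 6 were in the table and 3 were tested, so most of the list is described by detection only. Sfrp4 rose by 7.73 and Dkk3 fell by 1.86, while Notum differed by 0.03 with an adjusted p of 0.843 in limma. Frzb was above background in every NC1 array and in no C2 array (at least 7.83-fold lower at C2), and Sfrp1 in 5 NC1 arrays and 2 C2 arrays. Sfrp4 reached its level a step earlier than Sfrp2. It read between -3.07 and -2.83 at NC1, between 2.81 and 5.17 at C1 and between 4.58 and 4.94 at C2, so that C1 was 7.24 above NC1 and C2 only 0.49 above C1. Among the inter-alpha-trypsin inhibitor chains, Itih2 also passed detection in each NC1 array but nowhere at C2, at least 25.6-fold lower at C2, and Itih4 in 5 NC1 arrays and 2 C2 arrays. The other members of both lists were not analysed here.

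In all, 288 probes of 253 genes were well above background in every C2 array and in no NC1 array, and 441 probes of 400 genes in every NC1 array and in no C2 array. After Dmbt1 and Sfrp2 the largest bound at C2 belonged to Pik3c2g, a class II phosphoinositide kinase, at least 173-fold higher. Its C1 mean was 0.12 ± 0.64 (SD, n = 5) and its C2 mean 2.72 ± 0.26. After Itih5, the largest bounds at NC1 were those of Ccl21a, a chemokine that recruits lymphocytes, at least 115-fold, and of Ank1, an ankyrin that ties membrane proteins to the spectrin skeleton, at least 78.5-fold. Ccl21a has near-identical copies in the mouse genome that its probe may also read. It ranged from 0.98 to 3.64 at NC1, with the highest value in replicate 1, where theca and stroma markers were also highest.

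The largest rise of all tested genes was that of Akr1c18, which encodes the enzyme that inactivates progesterone in the corpus luteum. Akr1c18 read -4.05, -3.48, -4.32, -3.44 and -3.07 in the NC1 arrays and 7.43, 7.08, 6.92, 6.83 and 7.15 in the C2 arrays. The log2 difference was 10.75 ± 0.51 (SE, limma adjusted p = 3.05e-11), about 1730-fold. Akr1c18 was well above background in 4 of 5 NC1 arrays, so the size of its rise rests in part on signals near background. Spp1, the gene of the secreted phosphoprotein osteopontin, rose by 8.45 ± 0.27 (SE), from between -1.65 and -0.69 at NC1 to between 7.03 and 7.76 at C2. Tnfaip6, whose product links heavy chains to hyaluronan in the expanding matrix, rose by 8.13 ± 0.89 (SE). Its NC1 arrays lay between -4.64 and -3.30 and its C2 arrays between 3.75 and 4.78. Of the C1 arrays, replicate 4 stood at 2.71 and the other 4 between -3.77 and -2.90, and this is the C1 array in which Sfrp2 was seen.

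Abcb1b, an efflux pump of the multidrug resistance family, rose by 7.74, and Pdcd1, known as an inhibitory receptor of lymphocytes, by 7.10. Ndufa4l2, a mitochondrial protein induced by low oxygen, and Cited4, a transcriptional coactivator, both rose by 7.01. Like Akr1c18, Tnfaip6 and Ndufa4l2 were well above background in 4 of 5 NC1 arrays, with the same limit on the size of their rises. Slc16a11, a member of the monocarboxylate transporter family, rose by 6.91 and Lgals3, the galectin-3 gene, by 6.59. The largest rises and falls were chosen among called genes without overlap between NC1 and C2 arrays, so their separation is no further result. Of the 17342 probes tested, 4448 were higher and 4039 lower at C2 without overlap. Of the 10 genes with the largest rises, Sfrp4 included, all except Spp1 and Tnfaip6 were also called from NC1 to C1. In that step 2.09% of all genes were called higher. The span is the sum of the 2 steps, so the choice by span favours genes with a large first step.

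**Figure D2:**
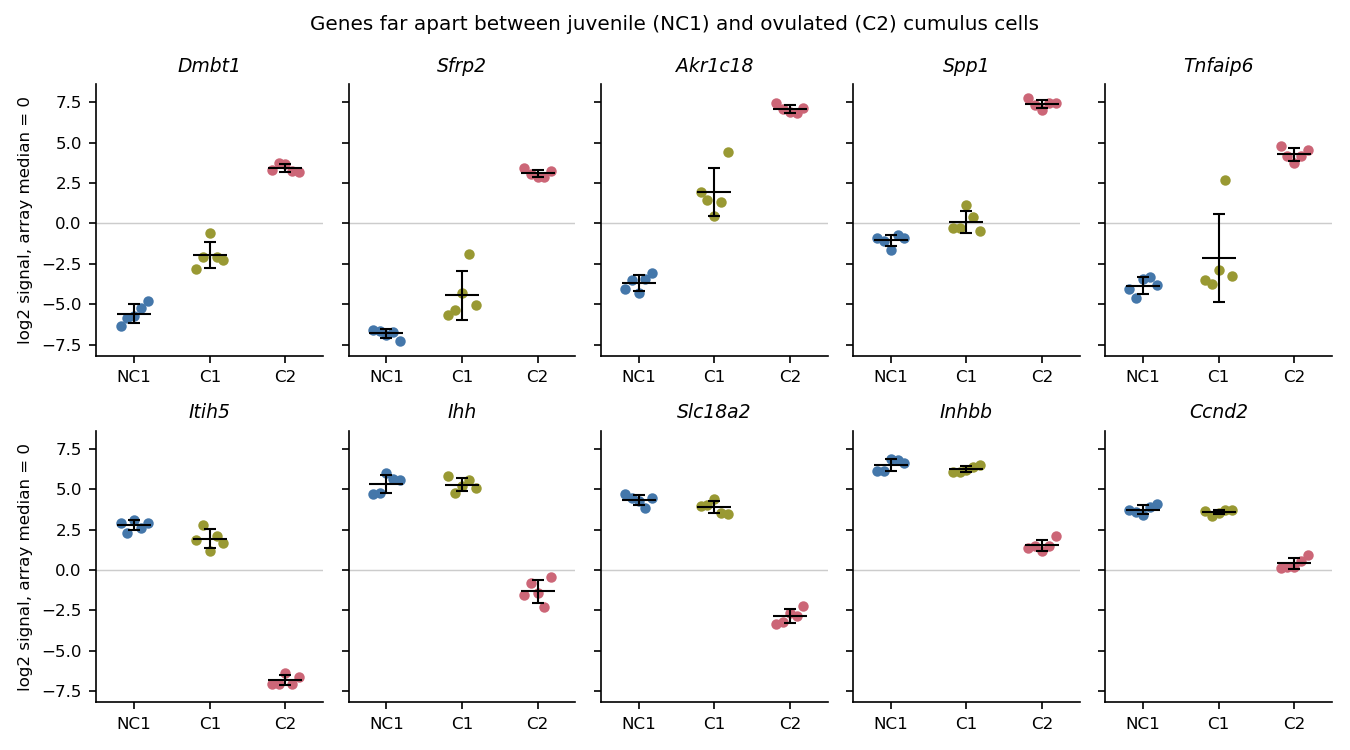
Log2 signal of 10 genes in each array, with the median of each array at 0, for NC1, C1 and C2 (5 arrays each). Points are arrays, and bars with whiskers are means ± SD. Dmbt1, Sfrp2 and Itih5 were below background in every array of their low end stage.

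The largest fall among tested genes was that of Cnnm1. Cnnm1, a cyclin-M family membrane protein, read 3.72, 3.82, 3.76, 3.64 and 4.03 at NC1 and -3.86, -3.46, -3.69, -4.20 and -3.72 at C2, a difference of -7.58 ± 0.13 (SE, limma adjusted p = 1.08e-15). Slc18a2, the vesicular monoamine transporter, fell by 7.20, Fndc5, the precursor of irisin, by 7.13 and Rarres2, the gene of the chemoattractant chemerin, by 6.97. Car14, a membrane carbonic anhydrase, fell by 6.67. Ihh, the hedgehog ligand by which granulosa cells signal to theca cells, fell by 6.64, with NC1 arrays between 4.71 and 6.01 and C2 arrays between -2.31 and -0.47. Tmem184a, Ntng1, Serpina3a and Mfsd2a fell by 6.52, 6.40, 6.27 and 6.26. Ntng1 was well above background in only 2 of 5 C2 arrays, so its C2 level and the size of its fall rest largely on signals at background. Fndc5, Rarres2 and Mfsd2a were well above background in 4 of 5 C2 arrays, so the sizes of their falls rest in part on signals near background. Of these 10 genes, Cnnm1 and Rarres2 were also called lower from NC1 to C1, by 0.80 and 1.54, beside 0.853% of all genes.

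Ovarian programmes moved by list as follows. Of 16 tested granulosa genes of the growing follicle, 14 fell (87.5%, beside 26.0% of all genes) and 1 rose (6.25%, beside 27.2%). Their median was -2.86, beside -0.02 over all genes tested. Inhbb, the inhibin beta-B subunit, read 6.11, 6.10, 6.87, 6.82 and 6.65 at NC1 and 1.37, 1.46, 1.2, 1.47 and 2.11 at C2, a fall of 4.99. Amh, the anti-Müllerian hormone, fell by 4.65, Cyp19a1, the aromatase that makes oestrogen, by 4.11 and Fshr, the receptor of follicle-stimulating hormone, by 2.88. Nr5a1, the steroidogenic factor 1 gene, was the exception and rose by 1.03. The gap junction gene Gja1, whose channels join cumulus cells to each other, fell by 2.34.

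Of 25 tested proliferation genes, 24 fell (96.0%, beside 26.0% of all genes) and none rose, and the median was -1.56. The lead was held by Ccnd2, the D-type cyclin of granulosa cells, which read 3.70, 3.60, 3.42, 3.87 and 4.09 at NC1 and 0.13, 0.19, 0.18, 0.55 and 0.95 at C2. Mcm2, a subunit of the replicative helicase, fell by 2.66. The gene not called was Pcna, the sliding clamp of DNA polymerase, which differed by -0.75 with an adjusted p of 0.0135 in limma.

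Of 17 tested luteal cell genes, 13 were called higher (76.5%, beside 27.2% of all genes) and 2 lower (11.8%, beside 26.0%), with a median of 1.58. Cyp11a1, the side-chain cleavage enzyme that starts steroid synthesis, was 6.34 higher at C2, and 5.46 of this difference lay between NC1 and C1. Fdx1, which passes electrons to that enzyme, rose by 3.86. Cdkn1c and Npc1 fell, by 1.71 and 0.71. One probe of Star, the protein that carries cholesterol into mitochondria, was above background in no NC1 array and in every C1 and C2 array, at least 24.1-fold higher at C2, and Ptgfr, the prostaglandin F receptor, followed the same detection pattern at 11.5-fold or more. The mean of this Star probe was -0.25 at C1 and -0.13 at C2. That of Ptgfr was 0.47 at C1 and -1.2 at C2.

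The ovulation and cumulus expansion list held 24 genes, of which 15 could be tested, with 9 called higher and 2 lower and a median of 1.5, while 27.2% of all genes were called higher and 26.0% lower. With no presence filter 23 could be tested, and 17 were higher, with a median of 2.54. The genes added in this way include some that were above background in every C2 array and in no NC1 array. This larger count therefore followed in part from how the genes entered and is no further support. Timp1, an inhibitor of matrix metalloproteinases, rose by 4.43, whereas Ptges and Ctsl fell by 1.08 and 0.43. The inducible prostaglandin synthase gene Ptgs2 was not among those tested. It was above background in no NC1 array, in 1 C1 array and in every C2 array, at least 54.3-fold higher at C2. The EGF-like ligands Ereg and Areg and the cytokine Il6 were likewise seen in every C2 array and no NC1 array, at least 19.9-fold, 2.22-fold and 6.32-fold higher. Has2, which makes the hyaluronan of the matrix, passed detection in every array of NC1, where its mean was -3.27, in 2 arrays of C1 (-3.68) and in every array of C2 (-1.10).

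Stress genes were then examined in 9 lists of 310 genes, of which 293 were in the table and 281 could be tested. Over the whole span 118 of them were higher (42.0%, beside 27.2% of all genes) and 64 lower (22.8%, beside 26.0%), and the median was 0.26. In the single steps, which share arrays with the span, 15 were higher and 3 lower from NC1 to C1 (5.34% and 1.07%, beside 2.09% and 0.853% of all genes), and 105 were higher and 70 lower from C1 to C2 (37.4% and 24.9%, beside 26.1% and 23.4%). Of the 281 stress genes, 15 were called over the span and in neither single step (5.34%), beside 957 of all 12660 genes (7.56%), so that this pattern was not more frequent among the stress genes than among all genes. The lists did not move together. The hypoxia list had the highest share of rises and the unfolded protein response list of the endoplasmic reticulum the highest share of falls.

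**Figure D3:**
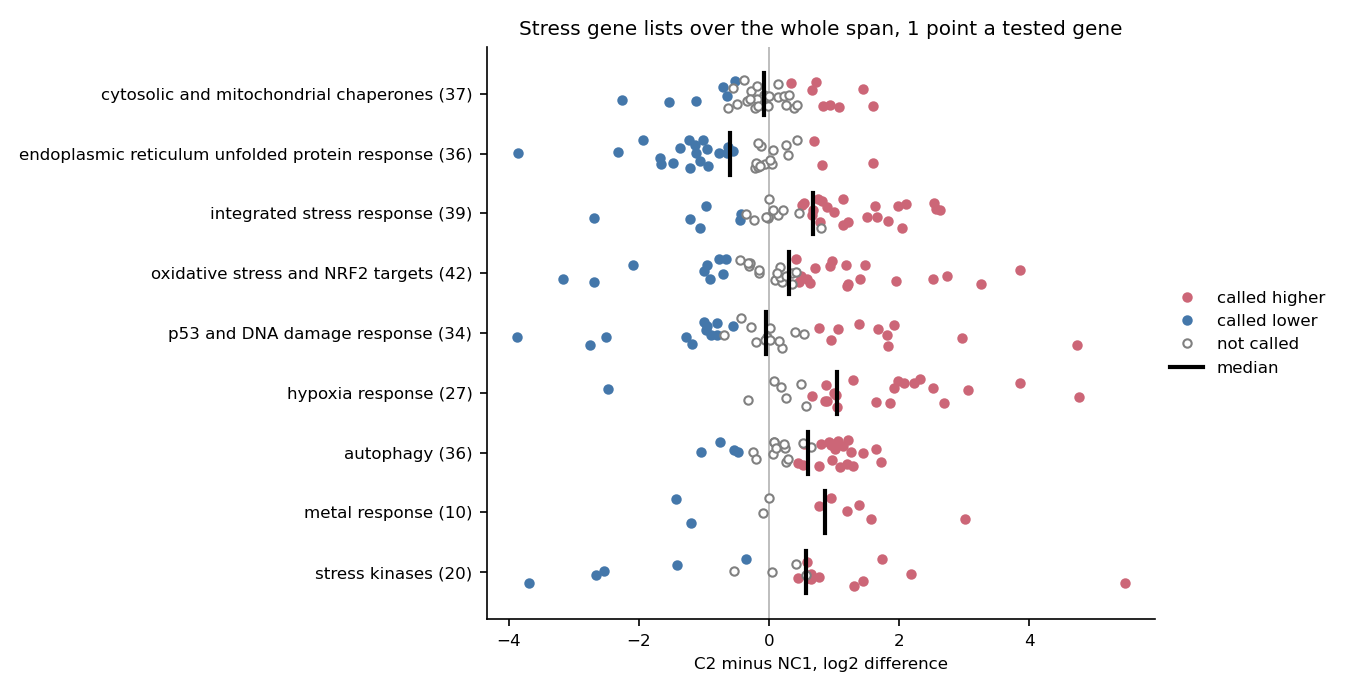
Log2 difference between C2 and NC1 for each tested gene of 9 stress lists, with the number of tested genes in brackets. Filled points passed an adjusted p of 0.01, open points did not, and the bar is the median of the list. The hypoxia list has its median at 1.05 and the unfolded protein response list at -0.59.

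In the unfolded protein response list 19 of 36 tested genes fell (52.8%, beside 26.0% of all genes) and 3 rose (8.33%, beside 27.2%). The median was -0.59. The list holds the chaperones and disulphide enzymes of the endoplasmic reticulum, the machinery that removes misfolded proteins and the sensors that control both. A short sequence, the ER stress response element (CCAAT, any 9 bases, then CCACG), is known to mediate their induction through ATF6 and NF-Y. It was searched on both strands of windows of 300 bases, 250 before and 50 after each gene start of RefSeq (GRCm38.p6), in which 31 of the 36 genes had a window. The element was present in 39 of all 32851 windows (0.119%), in 10 of the 32 windows of these genes (31.2%), in 9 of the 17 windows of the genes that fell (52.9%), in none of the 2 windows of those that rose and in 1 of the 13 windows of those not called (7.69%). A match is a description of the letters and not of a bound site. For this and the other elements below, all windows means those of 27025 genes, many of them not tested. The list members are tested genes, so the 2 shares come from unlike sets. The 250 bases before the start are shown, 5′ to 3′ on the gene's strand with the element in capitals on whichever strand it lies, for the central chaperones Hspa5 (BiP) and Hsp90b1 (GRP94) and for Derl3 and Creld2, the members with a match that fell furthest.

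Hspa5, chr2:34771840-34772089, plus strand: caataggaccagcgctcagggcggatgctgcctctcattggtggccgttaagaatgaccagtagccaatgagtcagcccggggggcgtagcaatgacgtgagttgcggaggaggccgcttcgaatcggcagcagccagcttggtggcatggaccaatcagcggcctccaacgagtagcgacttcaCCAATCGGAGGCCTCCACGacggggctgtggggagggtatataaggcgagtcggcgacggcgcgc

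Hsp90b1, chr10:86705445-86705694, minus strand: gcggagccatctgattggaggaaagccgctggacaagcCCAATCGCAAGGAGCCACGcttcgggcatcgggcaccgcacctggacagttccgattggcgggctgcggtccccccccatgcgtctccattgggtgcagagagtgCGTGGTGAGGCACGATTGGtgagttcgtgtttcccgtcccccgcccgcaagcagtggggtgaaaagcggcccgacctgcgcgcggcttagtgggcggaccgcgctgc

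Derl3, chr10:75893148-75893397, plus strand: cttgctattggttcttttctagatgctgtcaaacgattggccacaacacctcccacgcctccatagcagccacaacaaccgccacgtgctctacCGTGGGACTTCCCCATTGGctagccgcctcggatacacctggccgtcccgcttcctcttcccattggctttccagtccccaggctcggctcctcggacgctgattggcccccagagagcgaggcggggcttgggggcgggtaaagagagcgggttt

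Creld2, chr15:88819396-88819645, plus strand: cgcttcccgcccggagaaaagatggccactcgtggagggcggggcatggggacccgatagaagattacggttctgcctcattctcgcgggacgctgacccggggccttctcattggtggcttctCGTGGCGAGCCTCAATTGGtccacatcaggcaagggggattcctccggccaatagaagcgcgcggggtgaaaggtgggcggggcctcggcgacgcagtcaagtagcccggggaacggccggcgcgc

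Derl3, which helps to move misfolded proteins out of the endoplasmic reticulum, fell furthest in the list. It read 4.34, 4.19, 4.36, 4.46 and 4.51 at NC1 and 0.06, 0.72, 0.64, 0.53 and 0.67 at C2, a difference of -3.85 ± 0.13 (SE, limma adjusted p = 4.84e-13), and it was also called lower from NC1 to C1, by 0.60. Creld2 fell by 1.66 ± 0.20 (SE), Hspa5 by 1.14 ± 0.15 and Hsp90b1 by 1.05 ± 0.16. The lectin chaperones Calr and Canx, which retain unfinished glycoproteins, fell by 0.94 and 1.02, the co-chaperone Dnajc3 by 1.36, the oxidase Ero1b by 1.2 and the isomerase Pdia6 by 0.65. Syvn1, a ubiquitin ligase of the same membrane, was the member with a match that was not called, with a difference of 0.05. Among all genes with a match, whatever their list, 17 could be tested, and 12 fell, 1 rose and 4 were not called. Of all genes tested, 26.0% fell and 27.2% rose. The 12 that fell include the 9 list members given above. The list members are 10 of these 17, and of the other 7, Acacb, Alg12 and Hnrnpa3 fell, Adcy3 rose, and Pan2, Xlr3b and Zfp57 were not called. The members that rose were Derl1, by 1.61, Sec61b, by 0.82, and Ero1a, by 0.69. None of these 3 has an element in its window where a window was given.

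**Figure D4:**
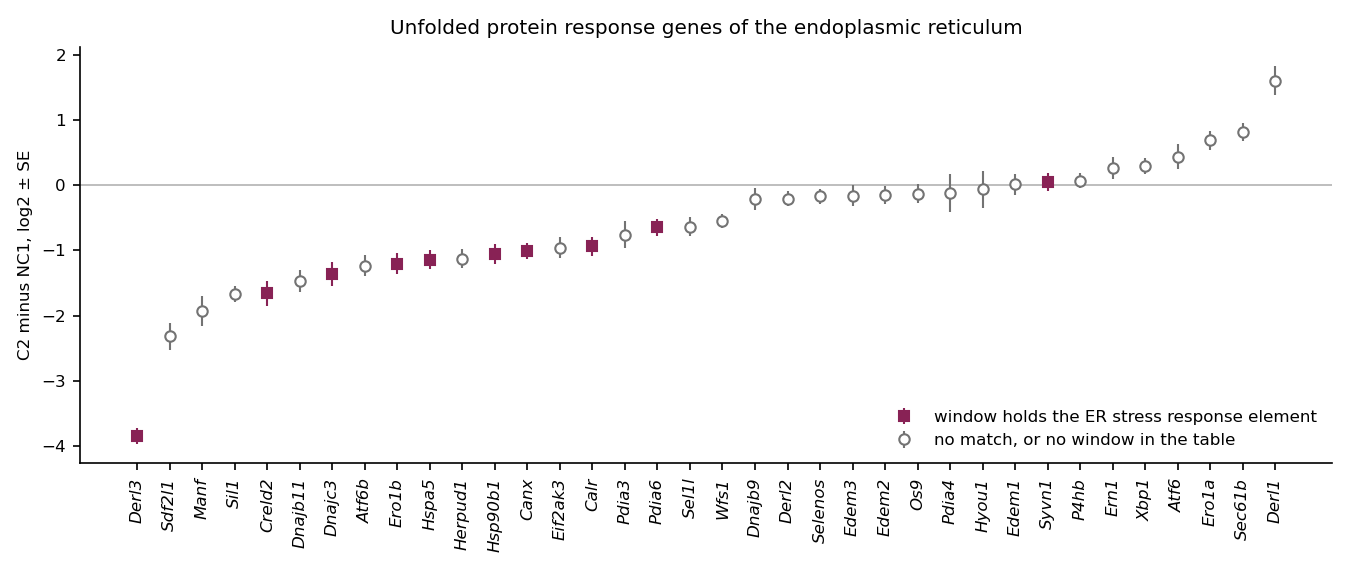
Log2 difference between C2 and NC1 with its standard error for 36 tested genes of the unfolded protein response of the endoplasmic reticulum, ordered by the difference. Squares are genes whose promoter window holds the ER stress response element. Of these 10 genes, 9 lie below 0 and passed the test, and Syvn1 lies at 0.05.

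The integrated stress response list ran the other way, with a median of 0.68. Of 39 tested genes, 22 were higher (56.4%, beside 27.2%) and 6 lower (15.4%, beside 26.0%). This response raises the transcription factor ATF4 and through it genes of amino acid import, aminoacyl-tRNA synthesis and survival. The largest rise was that of Nupr1, a stress-induced nuclear protein, which read 3.75, 3.43, 3.89, 4.45 and 4.16 at NC1 and 6.61, 6.54, 6.44, 6.49 and 6.74 at C2. The difference was 2.63 ± 0.20 (SE, limma adjusted p = 8.96e-09), and the C1 arrays, at a mean of 3.28 ± 0.44 (SD, n = 5), did not lie between the 2 ends. The factors Atf5, Cebpb and Ddit3 rose by 2.57, 2.10 and 1.63, and Atf4 by 0.76. Slc7a11, the cystine importer, was above background in no NC1 array, 1 C1 array and all C2 arrays, at least 3.71-fold higher at C2. The largest fall was that of Gdf15, a secreted stress cytokine, which fell by 2.69, and the serine synthesis gene Phgdh fell by 0.97. Asns, the asparagine synthetase gene, differed by -0.01 with an adjusted p of 0.959 in limma.

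The core of the amino acid response element, TGATGNAA, was found on either strand in 10 of 38 windows of tested genes of this list (26.3%), beside 1304 of all 32851 windows (3.97%). It lay in 5 of 21 windows of the genes that rose (23.8%) and in 4 of 9 of those not called (44.4%). The Nupr1 window is shown because Nupr1 had the largest rise among the genes with a match, which starts 110 bases before the gene start.

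Nupr1, chr7:126625471-126625720, minus strand: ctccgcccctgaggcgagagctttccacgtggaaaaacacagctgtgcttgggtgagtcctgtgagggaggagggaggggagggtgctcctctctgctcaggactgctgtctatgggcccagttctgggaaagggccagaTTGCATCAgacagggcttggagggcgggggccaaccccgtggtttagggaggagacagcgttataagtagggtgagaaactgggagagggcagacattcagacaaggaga

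In the hypoxia list 20 of 27 tested genes rose (74.1%, beside 27.2%) and 1 fell (3.7%, beside 26.0%), with a median of 1.05. These genes serve glycolysis, vessel growth, mitochondrial removal and the oxygen sensors. Bhlhe40, a transcriptional repressor of the clock and of hypoxia, read -2.06, -1.93, -2.45, -2.24 and -1.97 at NC1 and 2.51, 2.43, 2.66, 2.66 and 2.94 at C2. The difference was 4.77 ± 0.19 (SE, limma adjusted p = 3.52e-12), and Bhlhe40 was also called from NC1 to C1, by 1.18. Bnip3, which marks mitochondria for removal, rose by 3.06, Vegfa, the vascular growth factor, by 2.32, the glucose transporter Slc2a1 by 1.86 and lactate dehydrogenase Ldha by 1.03. Epas1, the HIF-2 alpha subunit, was the gene that fell, by 2.47, whereas Hif1a rose by 0.89. The hypoxia response element core ACGTG was present in 17 of 31 windows of the tested genes (54.8%), beside 6447 of all 32851 (19.6%), which include those of genes not tested. It lay in 12 of 24 windows of the genes that rose and in 5 of 7 of those not called (71.4%). The letters CACGTG hold this core on both strands and were counted as 1 window, and the core can overlap the end of the ER stress response element. The Bnip3 window, which had the largest rise among the hypoxia genes with a match, holds such a palindrome.

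Bnip3, chr7:138909507-138909756, minus strand: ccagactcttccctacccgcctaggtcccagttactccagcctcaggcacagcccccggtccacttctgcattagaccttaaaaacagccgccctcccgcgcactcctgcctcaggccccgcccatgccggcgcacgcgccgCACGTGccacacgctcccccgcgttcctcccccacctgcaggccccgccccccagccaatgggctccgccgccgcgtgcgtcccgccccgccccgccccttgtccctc

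Of 42 tested genes of the oxidative stress and NRF2 list, 18 rose (42.9%) and 9 fell (21.4%), beside 27.2% and 26.0% of all genes, with a median of 0.30. Srxn1, which reactivates over-oxidised peroxiredoxins, read -1.39, -1.43, -0.95, -1.30 and -1.62 at NC1 and 2.42, 2.46, 2.32, 2.77 and 2.62 at C2. The difference was 3.86 ± 0.20 (SE, limma adjusted p = 9.88e-11), of which 1.77 lay between NC1 and C1. Sod3, the extracellular superoxide dismutase, fell by 3.17, from between -0.19 and 0.31 to between -3.75 and -2.68. The NRF2 targets did not share 1 direction. Me1, which makes NADPH, rose by 3.27 and Osgin1 by 2.74, while both subunits of the enzyme that starts glutathione synthesis, Gclc and Gclm, fell by 1.00 and 0.76. The antioxidant response element core TGACNNNGC was present in 12 of 46 windows (26.1%), beside 12.4% of all windows.

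In the p53 and DNA damage list 10 of 34 tested genes were higher (29.4%, beside 27.2% of all genes) and 12 lower (35.3%, beside 26.0%), with a median of -0.04, which was 0.16 without re-centring and 0.0071 without C2 replicate 4. Cdkn1a, the p21 inhibitor of cyclin-dependent kinases, read -2.84, -2.82, -2.39, -2.56 and -2.80 at NC1 and 1.90, 1.97, 2.05, 2.15 and 2.18 at C2. It rose by 4.73 ± 0.15 (SE, limma adjusted p = 2.95e-13), and 1.29 of this lay between NC1 and C1. Perp, a p53 target of cell junctions, fell by 3.86, and the DNA repair gene Brca2 by 2.74. Bbc3, which encodes the cell death protein PUMA, rose by 2.97, while Trp53 itself differed by 0.20 with an adjusted p of 0.22 in limma.

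Among the chaperones of cytosol and mitochondria, 8 of 37 rose (21.6%) and 6 fell (16.2%), both under the shares of all genes, with a median of -0.07 that was 0.13 without re-centring. Hspa2 rose by 1.60. Hspa1a, the classic heat-inducible HSP70, fell by 2.26 ± 0.59 (SE, limma adjusted p = 0.00314). It read 0.32, -1.13, 0.18, 1.17 and 1.69 at NC1 and -1.29, -1.99, -2.06, -1.84 and -1.90 at C2, so that the groups were separate by a small gap, and its probe may also read the near-identical Hspa1b. Without NC1 replicate 5 the adjusted p for Hspa1a was 0.0108 and the difference -1.95.

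Autophagy genes rose in 20 of 36 cases (55.6%) and fell in 4 (11.1%), beside 27.2% and 26.0% of all genes, with a median of 0.60. Ulk2, a kinase that starts autophagy, rose by 1.72 ± 0.10 (SE), from between -0.78 and -0.54 at NC1 to between 0.77 and 1.19 at C2. The ubiquitin-like proteins that coat the autophagosome, Map1lc3a, Map1lc3b, Gabarap and Gabarapl2, rose by 1.26, 1.21, 1.02 and 1.64, whereas the conjugation genes Atg12 and Atg5 fell by 1.04 and 0.53.

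Metal response genes were few, with 10 of 13 tested. Of these 10, 6 were called higher and 2 lower, while 27.2% of all genes were called higher and 26.0% lower. Mt2, a metallothionein that binds zinc and copper, read 2.14, 1.99, 2.04, 2.06 and 1.93 at NC1 and 5.36, 4.69, 4.95, 5.24 and 5.03 at C2. Most of the difference of 3.02 ± 0.21 (SE, limma adjusted p = 2.62e-09) was present at C1, whose mean was 4.49 ± 0.56 (SD, n = 5). Mt1 rose by 1.38. The iron exporter Slc40a1 and the importer of transferrin iron, Tfrc, rose by 1.58 and 1.2, Slc39a14 and the zinc sensor Mtf1 by 0.77 and 0.96. The zinc exporter Slc30a1 fell by 1.43 and the metal importer Slc11a2 by 1.2. Cp, the ferroxidase ceruloplasmin, was above background in 4 C1 arrays and in no NC1 or C2 array.

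Of 20 tested stress kinases, 11 rose (55.0%, beside 27.2% of all genes) and 5 fell, while 26.0% of all genes fell. The median was 0.58. Sgk1, a serum and glucocorticoid induced kinase, read 0.11, 0.23, 0.58, 0.00 and 0.35 at NC1 and 5.57, 5.72, 5.73, 5.75 and 5.84 at C2. It rose by 5.47 ± 0.17 (SE, limma adjusted p = 2.76e-13), 2.57 of it between NC1 and C1. Mapk10, the neuronal JNK, fell by 3.68, and the p38 activator Map2k6 by 2.65. The p38 kinases Mapk13 and Mapk14 rose by 1.74 and 0.45, and the JNK genes Mapk8 and Mapk9 differed by 0.05 and -0.35, of which the second was called.

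Of the 15 stress genes called over the whole span and in neither single step, the 12 with the largest differences are described. Membership of this group depended on the threshold and on the scaling. At an adjusted p under 0.05 in limma, the second step was called in 10 of the 12 and the first step in 1. With spike-in scaling 9 of the 12, all but Hmox1, Tfrc and Ccng1, were no longer called over the span (adjusted p from 0.0141 to 0.158), and without re-centring the second step was called in 5, Hmox1, Tfrc, Gabarapl1, Map3k6 and Ero1a. A p over the threshold in a single step does not show that a gene stood still there, and both steps had the sign of the span in all 12, although without C1 replicate 1 the first steps of Gclm and Map3k6 did not (0.0549 and -0.0271). The span is the sum of the 2 steps, so the rule that chose these genes favours steps of the same sign. The shared sign is therefore no further result. Hmox1, the haem oxygenase that degrades free haem, showed the largest difference. It read 0.32, 0.11, -2.57, -0.49 and -1.45 at NC1, 1.43, 0.66, 0.94, -0.53 and 0.67 at C1, and 1.60, 1.34, 1.28, 2.18 and 2.09 at C2. The NC1 arrays were the most spread, with an SD of 1.2, and the lowest C2 array lay above the highest NC1 array. The span was 2.52 ± 0.46 (SE, limma adjusted p = 0.000172), beside steps of 1.45 (adjusted p = 0.0918) and 1.06 (adjusted p = 0.0598). The first step of Hmox1 was called with spike-in scaling (1.61, adjusted p = 0.00515) and the second without re-centring (1.37, adjusted p = 0.00495). The 2 highest NC1 arrays for Hmox1 were replicates 1 and 2, which also held the highest red blood cell marker sums, while at C2 these sums were under those of every NC1 array.

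Tfrc, the transferrin receptor, differed by 1.2 ± 0.18 (SE, limma adjusted p = 2.15e-05), with NC1 arrays between -1.50 and -0.93 and C2 arrays between -0.55 and 0.65. Its steps were 0.63 (adjusted p = 0.0576) and 0.57 (adjusted p = 0.0118). Without C2 replicate 1 or 2 the second step of Tfrc was called, with adjusted p of 0.0082 and 0.00211 in limma, and so it was without re-centring (0.00133), with quantile normalization (0.00843) and with the scanner files (0.00768). Ccng1, a cyclin induced by p53, differed by 1.07 ± 0.29 (SE, limma adjusted p = 0.00376). In Ccng1, NC1 replicate 4 stood at -2.48 and the other NC1 arrays between -0.69 and -0.46, and without that array the second step was called, with an adjusted p of 0.000746. The same array was low in Gabarapl1, another autophagosome coat protein, at 3.25 against 4.21 to 4.50 in the other NC1 arrays, and without it the step from C1 to C2 of Gabarapl1 was called as well (0.53, adjusted p = 0.000514).

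Genes of amino acid and folate metabolism were also in this group. Mthfd2, a mitochondrial folate enzyme, read between -1.92 and -1.64 at NC1, between -1.60 and -0.95 at C1 and between -1.21 and -0.75 at C2, with a span of 0.81 ± 0.12 (SE, limma adjusted p = 2.28e-05). Its steps were 0.51 and 0.30. Without C1 replicate 2 the first step of Mthfd2 was called (0.60, adjusted p = 0.0061). Aars, the alanyl-tRNA synthetase, differed by 0.78 over the span, and by 0.45 and 0.33 in its steps. Higd1a, a hypoxia-induced protein of the respiratory chain, differed by 0.88, and Ero1a, an oxidase of the endoplasmic reticulum, by 0.69. For Map3k6, a stress-activated kinase, the span was 0.77 ± 0.23 (SE, limma adjusted p = 0.00745), and leaving out NC1 replicate 3, 4 or 5 or any single C2 array ended the call (adjusted p from 0.0123 to 0.0243). Without C1 replicate 1 its second step was called (0.80, adjusted p = 0.00379).

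Gclm, the light subunit of the enzyme that starts glutathione synthesis, and Atm, the kinase that senses DNA breaks, were the members of this group that fell. Gclm differed by -0.76, with 1 overlapping value between the ends, since NC1 replicate 1 stood at -3.57 and C2 replicate 3 at -3.52. Its call ended without NC1 replicate 2 or 5 or C2 replicate 1 or 2 (adjusted p from 0.0105 to 0.014), and its second step was called without C1 replicate 1 (-0.82, adjusted p = 0.000799) and without C2 replicate 3 (-0.72, adjusted p = 0.00999). Atm read between -1.96 and -1.57 at NC1 and between -2.48 and -2.14 at C2, a difference of -0.55 ± 0.10 (SE, limma adjusted p = 0.000202). On the deposited scale without centring the Atm difference was -0.35 with an adjusted p of 0.0978. Wipi2, which binds the growing autophagosome membrane, had the smallest difference of the 12, 0.52 with an adjusted p of 0.0089 in limma, with overlapping ends, and leaving out NC1 replicate 1, 2 or 3, C1 replicate 1, 4 or 5 or C2 replicate 1, 2, 3 or 4 ended its call (adjusted p from 0.0106 to 0.028).

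**Figure D5:**
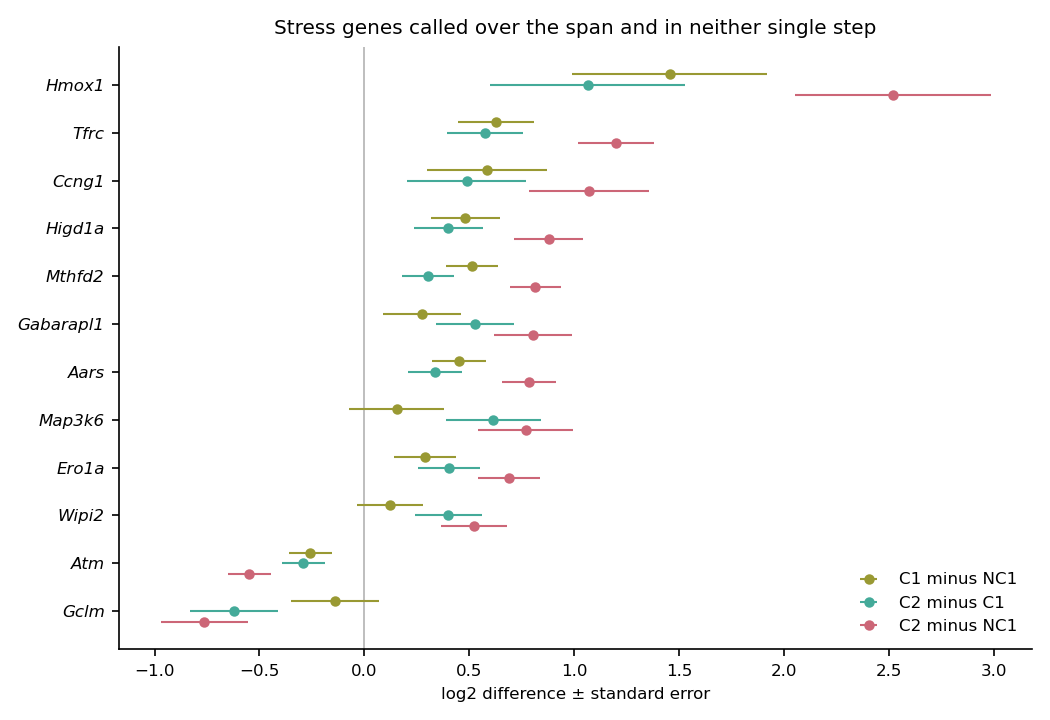
Log2 differences with standard errors for 12 stress genes called between C2 and NC1 and in neither single step. The 3 points of a gene are C1 minus NC1, C2 minus C1 and C2 minus NC1, which share arrays. Both steps lie on the same side of 0 as the span in every gene, which the rule that chose the genes favours.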

How the data were processed

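RNA of cumulus cell pools was hybridised to 1-colour Agilent whole mouse genome arrays, 5 for each of 3 stages. Feature extraction was version 10.5.1.1 per the labels and 10.7.1.1 per the file headers. The table deposited by the authors holds log2 signals of 20855 gene probes, with the number of stages in which a probe passed a presence filter. The deposited scanner files hold the intensity of each spot, its detection flag and, in their headers, a slide barcode. The table carries values for every array used, and the columns were matched to samples by name.

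The 17342 probes that passed at all 3 stages were tested. The median over these probes was subtracted from each array, and 1 linear model with a term for each stage was fitted to all 15 arrays with limma 3.58.1 (R 4.3.3), with Benjamini-Hochberg adjustment over all tested probes and a threshold of 0.01. For counts of genes the probe with the highest mean signal stood for its gene. A probe was detected in an array when the scanner flagged it as well above background, and one detected in all arrays of one end stage and none of the other is given as a bound. Symbols came from RefSeq for 13692 tested probes and from the deposited table for 2166, and 1484 had none. Promoter windows were those of RefSeq (GRCm38.p6). The model was checked on simulated data.

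Genes were named by rule: Dmbt1, Sfrp2 and Itih5, the 10 largest rises and 10 largest falls without overlap between NC1 and C2, the 3 largest bounds in each direction, the 12 largest stress genes called over the span and in neither step, the largest rise and fall of each stress list, the 2 largest of each ovarian list in each direction, and the members of lists of up to 13 genes. Further members were named after their values were seen. The comparison, its members and the lists were chosen with earlier results of these data known.

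The number of arrays limits the precision. Between 18368 and 24496 of 39429 gene probes were well above background per array, and the SD between arrays of a stage had a median of 0.21 for NC1, 0.23 for C1 and 0.20 for C2. The C2 arrays stood apart along the first principal component (72.5% of the variance). The stages came from different mice, so replicate numbers were not used as pairs in the main fit. Alternatives covered the centring, normalization, presence filter, background correction, source of values, slide and replicate blocks, threshold, and each array left out. Arrays with deviating marker sums were left out as alternatives chosen after seeing the data.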

Additional observations from a re-analysis of the deposited data

Results flagged for a closer look

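Among 144 groups of 5 arrays examined, 3 held an array far from the other 4, and chance alone flags about 1 group in 20. The groups were NC1 and C2 of the genes named by rule, and C1 only of the 12 stress genes called over the span only. The C1 arrays of the other genes were not examined, and deviating arrays occur there. In Tnfaip6, C1 replicate 4 stood at 2.71 and the other C1 arrays between -3.77 and -2.90. Ccng1 stood at -2.48 in NC1 replicate 4, where the nearest other array was at -0.69. Gabarapl1 was lowest in the same array, at 3.25, with the nearest other array at 4.21. Hspa1a was highest among the C2 arrays in C2 replicate 1, at -1.29, with the nearest other array at -1.84. The cause of these deviations was not tested.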

How the results depend on the processing

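Between C2 and NC1 the 60 named and tested genes kept their direction under every alternative that was run, and in 80 of 1859 pairs of a gene and a setting the call was lost. The count of probes called was 5145 with spike-in scaling and 4293 with a minimum change of 2-fold, against 8929. From NC1 to C1 the count was 440, and it was 271 without re-centring, 269 with spike-in scaling, 283 with the 2-fold minimum and 868 at an adjusted p of 0.05. From C1 to C2 it was 8250, and 4399 with spike-in scaling and 3702 with the 2-fold minimum. The 729 probes seen at one end only became 1505 when 4 arrays of one stage and at most 1 of the other sufficed. The share of calls higher at C2 was 48.7% with no presence filter, 65.3% without re-centring, 44.3% with the 75th percentile, 49.6% with quantile normalization, 52.8% with the scanner files and 52.7% with the 2-fold minimum. That minimum left 70 stress genes higher and 35 lower.

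With 1 array left out, the counts ran from 8272 to 8994 over the span, from 313 to 466 from NC1 to C1 and from 7640 to 8263 from C1 to C2. Those seen at one end ran from 753 to 923 and the share higher from 51.2% to 52.4%, and the stress genes that fell from 61 to 65.

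Of the 12 stress genes called over the span only, 9 lost the span call with spike-in scaling and 9 fell under the 2-fold minimum. A single step became called in 33 of 720 pairs of a step and a setting. Of these gains, 10 second steps and 1 first step came from the threshold of 0.05 alone. A few values changed sign. The Atm step from C1 to C2 was 0.0174 without re-centring. The first step of Gclm was 0.0134 with spike-in scaling, and with 1 array left out it ran from -0.2703 to 0.0549, the latter without C1 replicate 1. That of Map3k6 ran from -0.0271, without C1 replicate 1, to 0.2777. The median of the chaperones was 0.13 without re-centring. The median of the p53 list was 0.16 without re-centring and 0.0633 with C2 arrays 1 to 3 only, and with 1 array left out it ran from -0.1604 to 0.0071, the latter without C2 replicate 4. The cause was not tested.

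With the replicate number as a block, 8780 probes were called over the span (share higher 51.6%), 405 in the first step and 8068 in the second, with 115 stress genes higher and 66 lower, and of the named genes Ctsl lost its call over the span (adjusted p = 0.0114). The deviations of same-numbered NC1 and C2 arrays correlated between -0.242 and 0.003, with no sign of a pairing over the span. Those of same-numbered NC1 and C1 arrays correlated between 0.053 and 0.344, and those of C1 and C2 arrays between -0.169 and 0.213. What the NC1 and C1 arrays of a number may share was not tested. With C2 arrays 1 to 3 only, 58 stress genes were lower, and with NC1 arrays 3 to 5 only 112 were higher and 59 lower, both chosen after seeing the data. The call of Ctsl also ended without NC1 replicate 3 or 4 or C2 replicate 3, 4 or 5 (adjusted p from 0.0112 to 0.0147), and that of Ccng1 in a fit of the 10 arrays alone (0.0114), with slide as a block (0.0106) and with unmoderated variance (0.0117). Probes near background have only bounds, and 3513 gene probes of the table did not enter the test.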
